A study of Mus musculus with 6 samples.

Results

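Genes that mark striatal projection neurons were read from 6 Affymetrix mouse exon arrays of autophagy-deficient and control mouse tissue. The list held 8 genes, which were chosen by their role in this cell type and with measured differences between cKO and control on these same arrays in view. A gene's value is that of its transcript cluster (the probes along 1 transcribed region), provided that the array annotation pairs this cluster with no other symbol. This gave values for 7 of the 8 genes, among 19699 genes measured in the same way. Adora2a, the adenosine receptor gene of indirect-pathway neurons, had no cluster under this rule and was not analysed here. Since the genes were chosen with this contrast in view, their differences are given as a description, without a test.

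Total RNA was taken at postnatal day 16 from 3 control samples (Atg7+/+) and 3 conditional knockout samples (Atg7f/f, cKO), all on a C57BL/6 background and all carrying a Cre driver. The paper calls the driver Nestin-Cre, which is active in neural precursors and so in the ancestors of striatal neurons, whereas the sample titles call it NexCre, which is active in excitatory neurons of the cortex and hippocampus and not, as a rule, in striatal projection neurons. Likewise, the paper describes the dissected tissue as cerebral cortex and the labels give brain. The striatum lies directly beneath the cortex, and the share of it in each piece of tissue was not measured. Whether the arrays come from different animals is not stated in the labels or the paper, and the SDs describe the spread between these arrays. The standard errors are those of limma, which moderates the spread of each gene toward that of all genes.

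Striatal projection neurons, also called medium spiny neurons, are the GABAergic output neurons of the striatum and make up most of its cells. They fall into a direct pathway, with the dopamine D1 receptor, substance P and dynorphin, and an indirect pathway, with the dopamine D2 receptor, an adenosine receptor and enkephalin. Dopamine acts on both through cyclic AMP, which is made by adenylyl cyclase 5 under the G protein Golf, broken down by phosphodiesterases such as PDE10A and read out through protein kinase A and its substrate DARPP-32.

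The targeted gene was checked first. Atg7, read from a cluster that the annotation also pairs with Camsap1, had a log2 signal of 6.58, 6.54 and 6.39 in the control arrays, given here and below in the order of replicates 1, 2 and 3, against 6.12, 6.03 and 5.90 in the cKO arrays, so the genotype labels and this cluster ran the same way. The correlation between arrays over all 101175 clusters lay between 0.936 and 0.957. In cKO replicate 1 the X-inactivation transcript Xist was at 9.51 against at most 4.15 elsewhere, with the Y-linked genes Eif2s3y and Kdm5d at 2.90 and 3.96 against at least 5.50 and 5.92, and the labels give no sex. Over all genes, limma called 0 at an adjusted p under 0.05. At an unadjusted p under 0.05 it gave 412 with higher and 367 with lower signal in cKO.

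Of the 7 genes measured, 6 had a lower mean in cKO and 1, Tac1, a higher mean. All 7 had their highest signal in the same array, control replicate 1, and 6 had their lowest in cKO replicate 2. Of the 7 genes, 2 had cKO values entirely below the control values, Rgs9 and Gprin3, while 4.24% of all genes did so. Because the genes were chosen on this contrast, nothing is read from that count. Bulk RNA cannot separate fewer projection neurons from less of each transcript per neuron, and the part of tissue composition in these values was not tested.

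Promoter sequence is shown for 4 of these genes, which stand for the patterns described below: Drd2 and Rgs9, with the largest differences, Gprin3, whose array pattern departed from theirs, and Tac1, the gene with a higher mean in cKO. Each run is the 250 bases before the annotated gene start, read 5′ to 3′ on the strand of the gene, from RefSeq for GRCm38.p6, which held an entry for 5 of the 8 genes. Capitals mark matches, on either strand, to the GC box GGGCGG bound by Sp1-type factors, to TGACG, the core of the cyclic AMP response element, and to AGGTCA, a site of nuclear receptors such as the retinoid receptors. None of these motifs overlapped another in the runs below, and a match is a description of the letters, not a site of binding.
Drd2, chr9:49340153-49340402, plus strand: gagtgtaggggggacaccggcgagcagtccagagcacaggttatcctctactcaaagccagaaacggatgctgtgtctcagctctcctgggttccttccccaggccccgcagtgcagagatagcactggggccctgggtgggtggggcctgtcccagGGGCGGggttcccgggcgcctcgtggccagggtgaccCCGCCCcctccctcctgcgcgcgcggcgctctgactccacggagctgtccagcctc
Rgs9, chr11:109298182-109298431, minus strand: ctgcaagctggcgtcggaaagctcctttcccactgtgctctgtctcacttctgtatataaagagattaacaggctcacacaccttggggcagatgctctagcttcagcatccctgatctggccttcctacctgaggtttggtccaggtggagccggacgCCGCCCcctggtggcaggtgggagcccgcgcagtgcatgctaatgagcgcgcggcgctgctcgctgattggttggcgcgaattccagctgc
Gprin3, chr6:59426307-59426556, minus strand: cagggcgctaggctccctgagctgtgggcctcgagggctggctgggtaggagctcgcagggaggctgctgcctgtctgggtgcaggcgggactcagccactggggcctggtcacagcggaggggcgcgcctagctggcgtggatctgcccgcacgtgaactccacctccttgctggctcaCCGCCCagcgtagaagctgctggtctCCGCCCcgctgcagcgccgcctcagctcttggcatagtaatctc
Tac1, chr6:7554811-7555060, plus strand: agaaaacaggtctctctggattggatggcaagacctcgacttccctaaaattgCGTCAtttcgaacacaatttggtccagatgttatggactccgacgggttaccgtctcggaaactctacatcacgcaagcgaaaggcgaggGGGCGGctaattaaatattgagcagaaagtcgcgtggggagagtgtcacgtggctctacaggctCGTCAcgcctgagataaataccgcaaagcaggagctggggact

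The GC box occurred in all 4 runs, 2 times in Drd2 and Gprin3 and 1 time in Rgs9 and Tac1, and in 32.7% of 32851 promoter windows of the same length. The cyclic AMP response element core occurred 2 times in Tac1 and in 17.8% of all windows. It had no match in the runs of Drd2, Rgs9 and Gprin3. Of the 2 windows that RefSeq gave for Pde10a, not printed here, 1 held a GC box and 1 held none. The GC content was 68.8% in the runs of Drd2 and Gprin3, 59.6% in Rgs9 and 51.2% in Tac1, beside a median of 52.4% over all windows. The nuclear receptor site occurred in 14.0% of all windows and in none of the 4 runs.

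**Figure D1:**
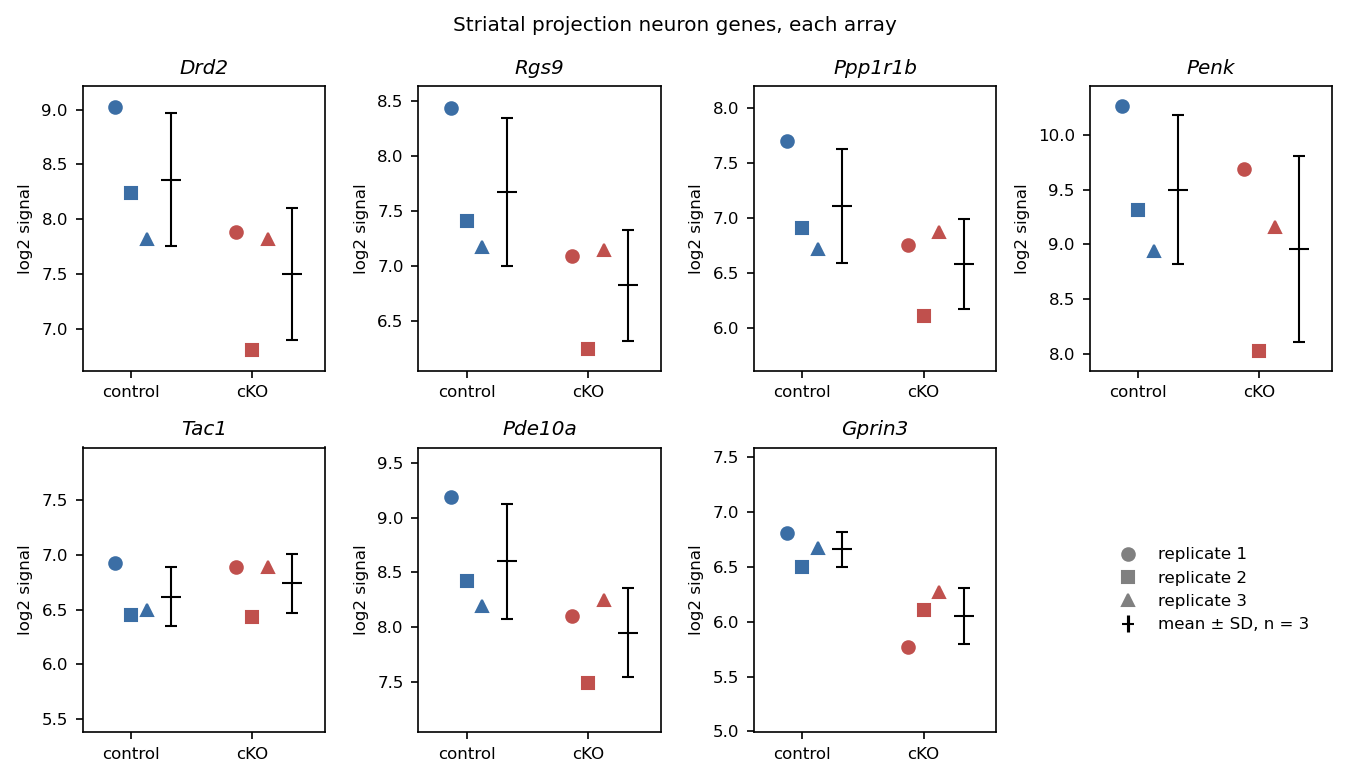
Log2 signal of each of the 7 genes in each array, with blue points for control and red points for cKO, a point shape for each replicate number, and the mean ± SD (n = 3) beside them; every panel spans the same range of log2 units. Control replicate 1 is the highest array for all 7 genes and cKO replicate 2 the lowest for all but Gprin3.

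Dopamine receptor signalling in these neurons begins with the receptors, and Drd2, which encodes the inhibitory D2 receptor of indirect-pathway neurons, had the largest difference of the 7 genes. The control arrays read 9.02, 8.24 and 7.82 on the log2 scale, against 7.88, 6.81 and 7.82 for the cKO arrays. Control replicate 3 and cKO replicates 1 and 3 lay together, so the groups overlapped, with control replicate 1 alone at the top and cKO replicate 2 alone at the bottom. The means were 8.36 ± 0.60 (SD, n = 3) in control and 7.50 ± 0.60 (SD, n = 3) in cKO, a difference of -0.86 with a standard error of 0.38, or a linear ratio of 0.551. The control arrays alone spanned 1.19, more than the difference between the groups.

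Rgs9 encodes a GTPase-activating protein whose striatal form shortens signalling from the D2 receptor. Its signal was 8.44, 7.41 and 7.17 in the control arrays and 7.09, 6.24 and 7.14 in the cKO arrays. Every cKO array lay below every control array, but control replicate 3 and cKO replicate 3 were almost equal. The mean was 7.67 ± 0.68 (SD, n = 3) in control against 6.82 ± 0.50 (SD, n = 3) in cKO, with a difference of -0.85 (standard error 0.38), a linear ratio of 0.555.

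Gprin3 encodes a protein of the family of G protein-regulated inducers of neurite outgrowth, found in indirect-pathway neurons, and it had the smallest spread within groups among the 6 genes with lower means in cKO. The arrays gave 6.81, 6.50 and 6.67 for control and 5.77, 6.11 and 6.27 for cKO. The groups did not overlap, and the lowest array was cKO replicate 1 rather than cKO replicate 2. Means of 6.66 ± 0.16 (SD, n = 3) and 6.05 ± 0.25 (SD, n = 3) gave a difference of -0.61 (standard error 0.15), a linear ratio of 0.654. This was the only one of the 7 genes whose control range, 0.31, was smaller than the difference between the groups.

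Genes that act downstream in the cyclic AMP pathway followed the pattern of Drd2. Pde10a, the phosphodiesterase gene most characteristic of the striatum, had signals of 9.19, 8.42 and 8.19 in control and 8.10, 7.49 and 8.25 in cKO. Its cKO replicate 3 lay above control replicate 3, and the difference was -0.66 (standard error 0.30), with means of 8.60 ± 0.53 (SD, n = 3) and 7.95 ± 0.41 (SD, n = 3). Ppp1r1b, which encodes DARPP-32, an inhibitor of protein phosphatase 1 once phosphorylated by protein kinase A, had signals of 7.70, 6.91 and 6.72 in control and 6.75, 6.11 and 6.87 in cKO. Here both cKO replicate 1 and cKO replicate 3 lay above the lowest control array. The means of 7.11 ± 0.52 (SD, n = 3) and 6.58 ± 0.41 (SD, n = 3) differed by -0.54 (standard error 0.30).

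The neuropeptide genes behaved differently from each other. Which cells of this tissue gave their signal was not tested, so no contrast between the pathways is read from them. Penk, the enkephalin precursor gene of the indirect pathway, was at 10.26, 9.31 and 8.94 in the control arrays and at 9.69, 8.03 and 9.16 in the cKO arrays. It had the widest range within cKO, 1.66, and cKO replicate 1 lay above control replicates 2 and 3. Its means of 9.50 ± 0.68 (SD, n = 3) and 8.96 ± 0.85 (SD, n = 3) differed by -0.54 (standard error 0.48), less than the SD of either group. Tac1, the precursor gene of substance P and neurokinin A in the direct pathway, was at 6.93, 6.45 and 6.50 in control and at 6.89, 6.43 and 6.89 in cKO. The high arrays were control replicate 1 and cKO replicates 1 and 3, and both groups lay within nearly the same limits. The difference of Tac1 was 0.11 (standard error 0.18), between means of 6.62 ± 0.27 (SD, n = 3) and 6.74 ± 0.27 (SD, n = 3).

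**Figure D2:**
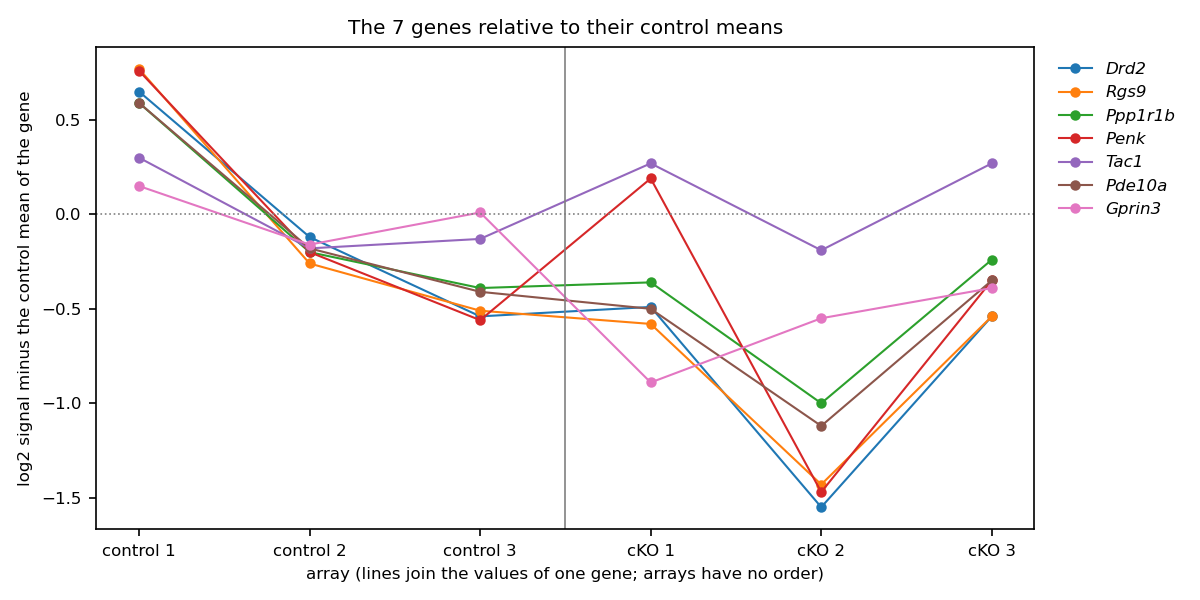
The value of each gene in each array minus its own control mean (log2), with 1 coloured line per gene joining the values only to guide the eye and a vertical line between the control arrays on the left and the cKO arrays on the right. Drd2, Rgs9, Pde10a and Ppp1r1b run almost together, from 0.59 to 0.77 in control replicate 1 down to between -1.0 and -1.55 in cKO replicate 2, while Tac1 and Gprin3 leave this path.

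Relative to its own control mean, each gene could be set beside the others within an array. In control replicate 1, Drd2, Rgs9, Ppp1r1b, Penk and Pde10a were at 0.65, 0.77, 0.59, 0.76 and 0.59, and in cKO replicate 2 at -1.55, -1.43, -1.0, -1.47 and -1.12. In control replicate 3 these 5 genes lay between -0.56 and -0.39 and in cKO replicate 3 between -0.54 and -0.24, so those arrays of opposite genotype were nearly alike. Gprin3 was at 0.15 in control replicate 1 and at -0.55 in cKO replicate 2, and Tac1 at 0.30 and -0.19.

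The dependence on single arrays was large. With 1 array left out in turn, the difference of Drd2 lay between -1.13, without control replicate 3, and -0.51, without cKO replicate 2. That of Rgs9 ranged from -1.10 to -0.47, of Pde10a from -0.86 to -0.36 and of Ppp1r1b from -0.73 to -0.24, each with its lowest value without control replicate 3 and its smallest difference without control replicate 1. Penk was most dependent, from -0.91 without cKO replicate 1 to -0.08 without cKO replicate 2. Gprin3 was least dependent of the 6 genes with lower means, from -0.72 without cKO replicate 3 to -0.47 without cKO replicate 1. With control replicate 1 and cKO replicate 2 both left out, the differences were -0.19 for Drd2, -0.175 for Rgs9, -0.13 for Pde10a, -0.01 for Ppp1r1b and 0.30 for Penk. Gprin3 was still at -0.57 and Tac1 at 0.42. The lowest array of Gprin3 was cKO replicate 1, which this pair leaves in. That array was also the one with high Xist and low Y-linked signal, and the part of sex in the Gprin3 value was not tested. Without both arrays numbered 1, also chosen after the values were seen, Gprin3 differed by -0.40. Control replicate 1 and cKO replicate 2 were picked after the values were seen, as the highest array of all 7 genes and the lowest of 6. For those 6 genes, leaving out both raises the cKO minus control value by construction. This holds for Tac1 too, whose group means moved further apart.

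**Figure D3:**
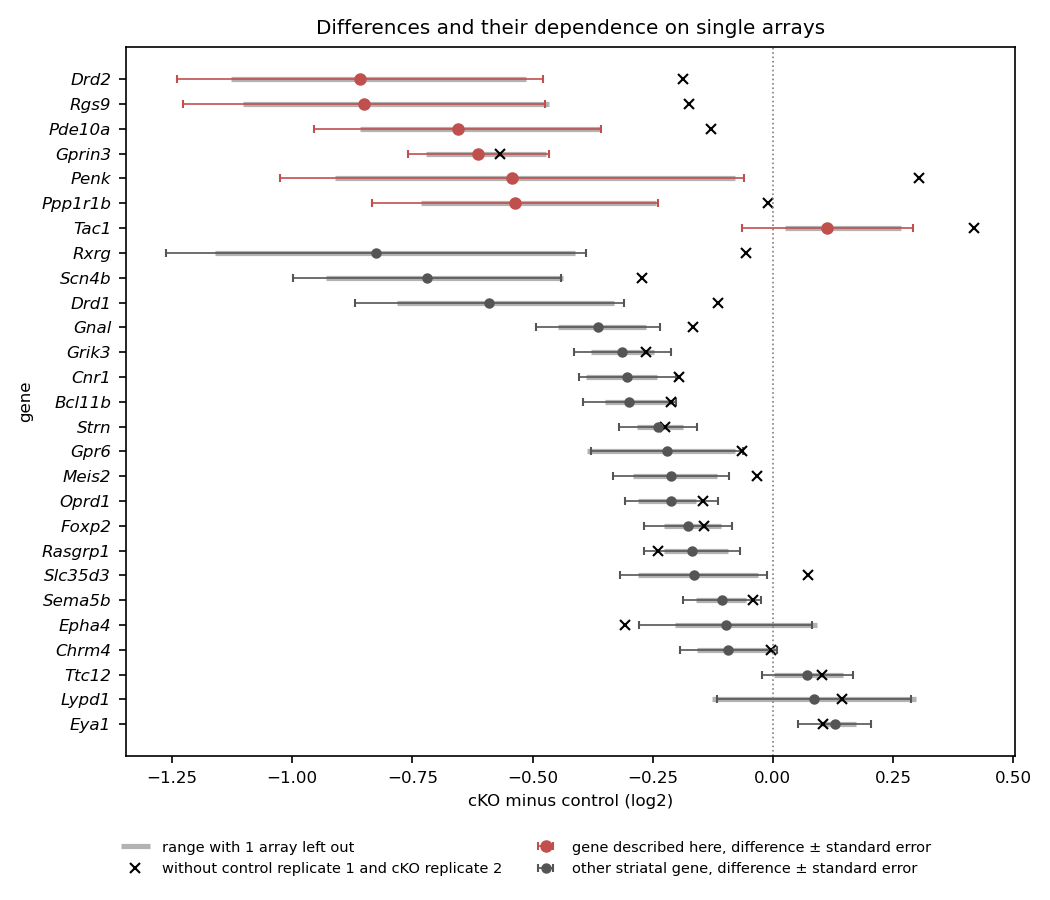
Difference between cKO and control (log2, horizontal axis) for the 7 genes described here (red) and other striatal genes (grey), with bars for the standard error, a thick grey band for the range with 1 array left out in turn and a cross for the value without control replicate 1 and cKO replicate 2. The cross lies close to the estimate for Gprin3 and Strn, whose lowest array, cKO replicate 1, is not in the pair left out. It lies far from the estimate for Drd2, Rgs9 and Rxrg.

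Other genes of these neurons were taken from lists of 56 striatal genes, of which 53 were measured. Whether their signal in this tissue came from striatal neurons or from cortical cells was not tested. Their median difference was -0.12, beside -0.01 over all genes, and 42 of 53 had a lower mean in cKO (79.2%, beside 52.5% of all genes). None was called at an adjusted p under 0.05 in limma, where 0% of all genes were called (the lowest adjusted p among the 53 was 0.9995). At an unadjusted p under 0.05, 8 of 53 (15.1%) were lower, beside 1.86% of all genes, and 0 were higher. The control and cKO values did not overlap, with cKO lower, for 9 of 53 (17.0%), beside 4.24% of all genes. The count of 8 at an unadjusted p under 0.05 in limma depended on the arrays used. Leaving out 1 control array gave 1 (replicate 1), 5 (replicate 2) and 10 (replicate 3). Leaving out 1 cKO array gave 9 (replicate 1), 3 (replicate 2) and 7 (replicate 3). With control replicate 1 and cKO replicate 2 both left out, that count was 0. The highest array was control replicate 1 for 31 of the 53 (58.5%, beside 20.0% of all genes) and the lowest was cKO replicate 2 for 26 (49.1%, beside 18.5%). The striatal lists, here and below, were chosen with earlier results of these data known. Many of their genes also moved together over the arrays. The counts and p-values are therefore a description, and the genes are not separate pieces of support.

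Among 9 direct-pathway genes, 6 had lower means, with a median difference of -0.02 and 0 at an unadjusted p under 0.05 in either direction. Drd1, the D1 receptor gene, had signals of 7.03, 6.38 and 6.13 in control and 6.30, 5.49 and 5.98 in cKO, the same order of highest and lowest arrays as Drd2. Its difference was -0.59 (standard error 0.28, unadjusted p = 0.0730 and adjusted p = 0.9995 from limma), or -0.33 without control replicate 1. The muscarinic M4 receptor gene Chrm4 differed by -0.09, Slc35d3 by -0.16 and the developmental gene Eya1 by 0.13, all with overlapping groups. Of 6 indirect-pathway genes, 5 had lower means, with a median of -0.13. The kainate receptor gene Grik3 had 8.12, 7.99 and 7.86 in control and 7.78, 7.70 and 7.54 in cKO, without overlap, and differed by -0.31 (standard error 0.10, unadjusted p = 0.0181 and adjusted p = 0.9995 from limma). The delta opioid receptor gene Oprd1, the orphan receptor gene Gpr6 and Ttc12 differed by -0.21, -0.22 and 0.07, and their groups overlapped.

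Of 18 genes of signal transduction shared by both pathways, 17 had lower means (94.4%, beside 52.5% of all genes), with a median difference of -0.27, and 6 were lower at an unadjusted p under 0.05 (33.3%, beside 1.86% of all genes). Cnr1, the cannabinoid CB1 receptor gene, had signals of 7.35, 7.05 and 7.27 in control and 6.99, 6.83 and 6.95 in cKO. Its groups did not overlap, and the difference was -0.30 (standard error 0.10, unadjusted p = 0.0199 and adjusted p = 0.9995 from limma). Strn, which encodes the calmodulin-binding scaffold striatin, was at 7.55, 7.50 and 7.47 in control and 7.17, 7.29 and 7.36 in cKO, a difference of -0.24 (standard error 0.080), and here the lowest array was cKO replicate 1. Gnal, the alpha subunit gene of Golf, differed by -0.36 (standard error 0.13) without overlap, and Scn4b, the sodium channel beta 4 subunit gene, by -0.72 (standard error 0.28) with cKO replicate 3 above control replicate 3. The median of the 18 genes relative to control was 0.27, -0.11 and -0.17 in the control arrays, against -0.23, -0.43 and -0.26 in the cKO arrays. In this median all cKO arrays lay below all control arrays, but control replicate 3 (-0.17) and cKO replicate 1 (-0.23) lay close together. Of the 18 genes, 15 were highest in control replicate 1 (83.3%, beside 20.0% of all genes). The lowest array was cKO replicate 2 for 11 of them (61.1%, beside 18.5%). Without control replicate 1 and cKO replicate 2 the median difference of these genes was -0.125.

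Among 13 transcription factors of striatal development and maturation, 10 had lower means and the median difference was -0.10. Bcl11b, also called Ctip2, is needed for projection neurons to mature and is also expressed in deep-layer cortical neurons. It was at 7.72, 7.46 and 7.44 in control and at 7.22, 7.25 and 7.25 in cKO, so the 3 cKO arrays were nearly identical and all below control. The difference was -0.30 (standard error 0.096, unadjusted p = 0.0177 and adjusted p = 0.9995 from limma), and -0.21 without control replicate 1 and cKO replicate 2. Rxrg, the retinoid X receptor gamma gene, had the opposite kind of spread, with 7.84, 6.88 and 6.68 in control and 6.98, 5.48 and 6.47 in cKO. It differed by -0.825 (standard error 0.44), and by -0.06 without the same pair of arrays. The homeobox gene Meis2 differed by -0.21 with overlap and the forkhead gene Foxp2 by -0.18, narrowly without it. Of 7 genes that mark the striosome and matrix compartments, 4 had lower means, the median difference was -0.06 and none of the groups was apart, with Rasgrp1 at -0.17, Sema5b at -0.11, Epha4 at -0.10 and Lypd1 at 0.09.

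The array pattern of the 7 genes was also used to rank 9842 genes whose mean signal was above the median, by Pearson correlation with the mean centred profile over the 6 arrays. The 10 most alike included 5 genes of the striatal lists, Rasd2 (r = 0.994), Actn2 (r = 0.985), Meis2 (r = 0.984), Adcy5 (r = 0.980) and Zfp503 (r = 0.975). The others were Uqcr10, Arf1, Mov10, Syf2 and Tor2a, with r between 0.974 and 0.984. Rasd2, which encodes the striatal small GTPase Rhes, had signals of 8.0, 7.51 and 7.28 in control and 7.37, 6.71 and 7.34 in cKO, and Adcy5, the adenylyl cyclase 5 gene, had 8.37, 7.70 and 7.55 in control and 7.52, 7.02 and 7.41 in cKO. Both were highest in control replicate 1 and lowest in cKO replicate 2, with overlapping groups for Rasd2 and not for Adcy5. For Rasd2, Actn2 and Adcy5 the slope against the profile was 0.80 to 0.86, whereas it was at most 0.36 for the other 7 genes named, which moved along the same path over a much smaller distance. Of 46 other striatal genes that could be ranked, 12 (26.1%) were among the 98 most alike, and their median r was 0.69 beside 0.12 for all ranked genes. These are correlations over 6 arrays of 2 groups, given as a description, and a gene can reach a high r over so few arrays without any relation to the striatum.

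Markers of other regions and cells were read on the same arrays. Choroid plexus and thalamic genes differed strongly between arrays, but in an order unlike that of the striatal genes. Ttr, the transthyretin gene of the choroid plexus, was at 5.38, 9.62 and 7.35 in control and at 9.88, 7.03 and 5.58 in cKO. The median of the 9 thalamic genes relative to control was highest in cKO replicate 1, at 0.60, and in control replicate 2, at 0.42, and lay between -0.31 and -0.15 elsewhere. The median of the 7 choroid plexus genes was 0.40 in control replicate 2 and 0.45 in cKO replicate 1, and between -0.29 and -0.12 elsewhere, and the lowest array was not the same for each of these genes. The 12 cortical excitatory genes stayed between -0.09 and 0.11 in their array medians, with the highest value in cKO replicate 2, and the 12 pan-neuronal genes between -0.11 and 0.04. These medians hold genes that went different ways, of which 3 are named after their values were seen. Rorb, a gene of cortical layer IV, was at 6.76, 8.08 and 8.35 in control and at 6.23, 8.0 and 8.19 in cKO, low in both arrays numbered 1. Neurod6 differed by -0.44 without overlap (standard error 0.15, unadjusted p = 0.0243 and adjusted p = 0.9995 from limma), and Uchl1, from the pan-neuronal list, was highest in control replicate 1, at 9.34, and lowest in cKO replicate 2, at 8.36. The median of the 5 basal forebrain cholinergic genes was highest in control replicate 1, at 0.10, and lowest in cKO replicate 2, at -0.17. Of the 5 genes themselves, 3 were highest in control replicate 1 (60.0%, beside 20.0% of all genes). In cKO replicate 2, 2 of them were lowest (40.0%, beside 18.5%). The acetyltransferase gene Chat lay between 4.88 and 5.23 over all arrays. The median of the 11 GABA and interneuron genes, which include the glutamic acid decarboxylase gene Gad2, was 0.14 in control replicate 1 and between -0.07 and 0.05 elsewhere. Single genes spanned more over the arrays, such as Sst with 0.75 and Slc32a1 with 0.73. Of the 11 genes, 6 were highest in control replicate 1 (54.5%) and 3 lowest in cKO replicate 2 (27.3%). The median differences of the other lists were -0.04 for hippocampal, 0.02 for hypothalamic, 0.01 for olfactory bulb and septum, 0.01 for midbrain and hindbrain, 0.09 for astrocyte, 0.04 for microglial and 0.01 for vascular genes. Syn1, a synaptic vesicle gene, lay between 10.79 and 10.88 on all arrays. Of the other brightest genes of these lists, all with overlapping groups, Slc17a7 differed by -0.21, Fezf2 by 0.12, Syt1 by -0.09, Rgs16 by 0.17, Ntng1 by -0.26, Kl by -0.01, Lhx8 by 0.03, Gad2 by -0.14, Sst by -0.03 and Cldn11 by -0.26. The differences of Wfs1, Ociad2, Cartpt, Oxt, Trpc4, Nos1, Slc6a3, En1, Slc1a3, Aldoc, Csf1r, P2ry12, Slco1c1 and Pdgfrb lay between -0.20 and 0.18.

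**Figure D4:**
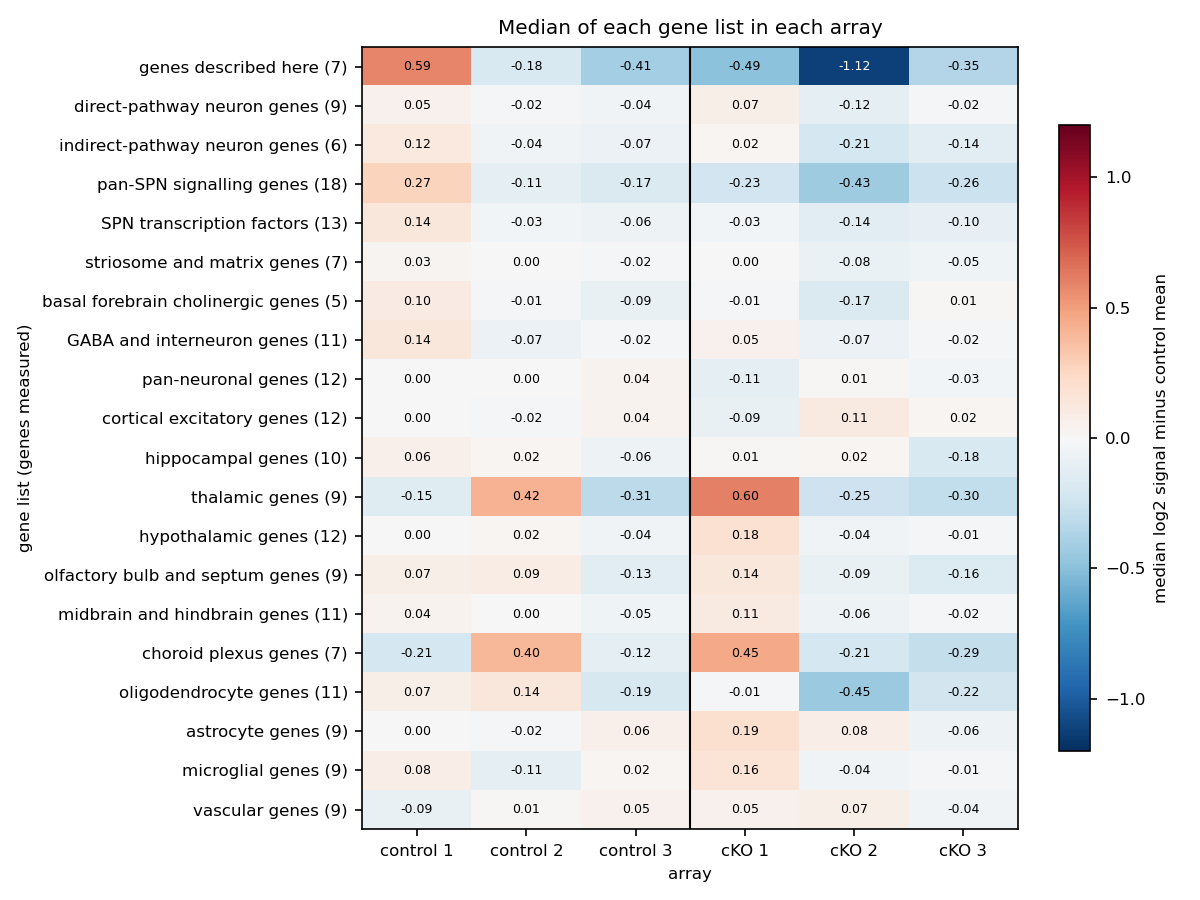
Median of each gene list (rows, with the number of genes measured) in each array (columns, control left of the line and cKO right of it), as log2 signal minus the control mean of each gene; red is above and blue below control. The 7 genes described here run from 0.59 in control replicate 1 to -1.12 in cKO replicate 2, whereas the thalamic and choroid plexus lists are highest in control replicate 2 and cKO replicate 1.

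Oligodendrocyte genes, which mark the myelinated bundles that cross the striatum as well as white matter elsewhere, shared part of this array pattern. All 11 had lower means in cKO, beside 52.5% of all genes, with a median difference of -0.26. In cKO replicate 2, 10 of 11 were lowest (90.9%, beside 18.5% of all genes). In control replicate 1, only 4 of 11 were highest (36.4%, beside 20.0%). At an unadjusted p under 0.05 in limma 0 were lower, beside 1.86% of all genes. The groups did not overlap for 1 of 11 (9.09%, beside 4.24% of all genes). Their array medians were 0.07, 0.14 and -0.19 in control and -0.01, -0.45 and -0.22 in cKO. Mbp, the myelin basic protein gene, had its lowest signal, 8.87, in cKO replicate 2, while every other array lay between 9.14 and 9.45. The summed signal of the 11 genes on the linear scale ranged from 3060 to 3750 in control and from 2460 to 3426 in cKO, and that of the 7 striatal genes from 1452 to 3123 and from 852.8 to 1755, with overlap in both. The summed signal of the 12 cortical excitatory genes ranged from 3690 to 4113 in control and from 3189 to 3929 in cKO. The part of tissue composition in the differences of Drd2, Rgs9, Pde10a, Ppp1r1b and Penk was not tested. With the array median of the pan-neuronal genes subtracted, the differences were -0.80 for Drd2, -0.79 for Rgs9, -0.60 for Pde10a, -0.55 for Gprin3, -0.48 for Ppp1r1b, -0.48 for Penk and 0.17 for Tac1. The same subtraction brought the median difference of the 53 other striatal genes from -0.12 to -0.06. It takes 1 value per array from every gene, so the differences of all genes shift alike. The distance between striatal genes and all genes is therefore unchanged. With the cortical excitatory genes subtracted instead, the median of the 53 genes was -0.11.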

How the data were processed

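Total RNA was hybridised to GeneChip mouse exon 1.0 ST arrays. The table deposited by the authors holds 1 log2 signal per cluster and array, after their own summarisation and normalization. The paper names GeneSpring as the software. For the summarisation method, annotation version and genome build, nothing is given in the sources used here. Another deposited table holds p-values and fold changes of the authors' own comparison and was not used.

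Of 101175 clusters, 22773 had 1 symbol in the array annotation, and 22258 of those were found by identifier in RefSeq (GRCm38.p6). For the 2224 genes with several clusters, the one with the highest mean was taken, without a filter on dim genes. This left 19699 genes, which limma 3.58.1 under R 4.3.3 tested (lmFit, eBayes, two-sided), with p-values adjusted over all of them by Benjamini-Hochberg. Standard errors are from this fit, which was tested on simulated data with independent noise for each gene. Those data held no array pattern shared by genes, so they do not bear on the pattern described here. The number of arrays limits the precision.

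The genes and the 20 gene lists were chosen with earlier results of these data known. Of 211 listed genes, 196 were measured. Named were the genes described, the 4 genes with the lowest unadjusted p in each striatal list, the 2 with the highest mean signal in other lists, and the 10 most like the mean profile. A few more are named because a count or value turned on them. Alternatives were another quantile normalization, centring, averaged clusters, subtraction of neuronal or cortical genes, no dim genes, a trended and robust spread, a threshold of 0.1, a replicate block and leaving out arrays. Leaving out 2 arrays together was added after the values were seen.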

Additional observations from a re-analysis of the deposited data

How the results depend on the processing

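With 1 array left out in turn the cKO minus control differences ranged from -1.128 to -0.513 for Drd2, -1.103 to -0.466 for Rgs9, -0.732 to -0.243 for Ppp1r1b, -0.910 to -0.078 for Penk, 0.025 to 0.267 for Tac1, -0.860 to -0.359 for Pde10a and -0.722 to -0.473 for Gprin3. Without control replicate 1 and cKO replicate 2, a choice made after seeing the data, the values were -0.186 for Drd2, -0.175 for Rgs9, -0.010 for Ppp1r1b, 0.303 for Penk, 0.419 for Tac1 and -0.129 for Pde10a. The median of the other striatal genes was then -0.024 and 0 of them were lower at an unadjusted p under 0.05. Without both arrays numbered 1, also chosen after seeing the data, Gprin3 differed by -0.397 and 5 other striatal genes were lower. This count was 8 in the reported fit and ranged from 1 to 10 with 1 array left out, and their median from -0.177 to -0.060. Among all genes limma called 1 at an adjusted p under 0.05 where clusters were averaged per gene and 1 without the lowest 25% of genes.

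Both groups carry replicate numbers 1 to 3, and the sample titles name no pairs. The deviations of same-numbered arrays correlated at 0.306, 0.0373 and 0.166, and those of arrays with different numbers between -0.271 and 0.164. Control replicate 2 correlated best with cKO replicate 3, at 0.0464. Whether arrays of the same number share a pairing or a batch was not tested. With the replicate block the count of 8 was 14 and no adjusted call was made among the other striatal genes. With 3 arrays a group and no depth measure, the number of arrays limits every value.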
